A study of Mus musculus with 4 samples.

Results

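The contractile machinery of smooth muscle was followed through 10 genes in the leg muscles of late fetal mice. They were matched by symbol to the deposited gene table, where they make up 10 of 32285 features: the actins *Acta2* and *Actg2*, the myosin heavy chain *Myh11*, the myosin regulatory light chain *Myl9*, its kinase *Mylk*, the actin-binding proteins *Tagln*, *Cnn1*, *Smtn* and *Lmod1*, and the transcriptional coactivator *Myocd*. The genes were chosen by name and function and not by a rule on a measured value, but with earlier results of these data known. Their transcripts were counted in smooth muscle cells, pericytes, fibroblasts and the stages of the skeletal muscle lineage.

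Leg muscles of E18.5 mice, close to birth, came either from wild-type (WT) fetuses or from littermates without *SYISL* (KO), a long non-coding RNA read from within an intron of *Synpo2*. Both genotypes came from matings of heterozygous mice and no further allele or treatment is given for either. Each genotype had 2 libraries of droplet-based single-cell RNA sequencing, and the number and sex of the fetuses behind a library were not stated. The tissue was digested with trypsin and passed through a fine strainer, so long multinucleated fibres are largely outside what was measured.

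Smooth muscle contracts when calcium and calmodulin activate the kinase Mylk, which phosphorylates the light chain Myl9 and lets the Myh11 motor pull on actin filaments built from Acta2 or Actg2. Calponin (Cnn1), transgelin (Tagln), smoothelin (Smtn) and leiomodin (Lmod1) bind these filaments. Myocd binds serum response factor (SRF) at DNA elements called CArG boxes, a run of A and T bases between a pair of C and a pair of G, and switches the genes on together. Pericytes, the other mural cells of vessels, are known for low levels of the contractile genes, and *Acta2* is also known as a transient product of fetal skeletal muscle.

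In the files' build (GRCm38), *Acta2* lies at chr19:34241090-34255590 on the minus strand and *Actg2* at chr6:83512905-83536265 on the minus strand. *Myh11* lies at chr16:14194535-14291372 (minus), *Myl9* at chr2:156775420-156781658 (plus) and *Mylk* at chr16:34745210-35002420 (plus). *Tagln* lies at chr9:45929619-45936058 (minus), *Cnn1* at chr9:22099216-22109630 (plus), *Smtn* at chr11:3517523-3540612 (minus), *Lmod1* at chr1:135324807-135368065 (plus) and *Myocd* at chr11:65176561-65269989 (minus). On the opposite strand, *Tagln* overlaps *Pcsk7* and *Gm48529*, *Smtn* overlaps *Gm11946* and *Gm11947*, and *Mylk* overlaps *1700119H24Rik*, *E130310I04Rik* and *Gm21691*. The 3′ kit keeps strand, but the counting setting was not stated. Actin genes resemble each other, so the last 500 bases of their transcripts, where 3′ reads fall, were compared. The longest identical run that *Acta2* shared with another actin was 29 bases (*Acta1*), and for *Actg2* it was 31 bases (*Actc1*).

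Promoter sequences in RefSeq (GRCm38.p6, 250 bases before to 50 bases after the start) were matched for 6 of the 10 genes, namely *Acta2*, *Myl9*, *Cnn1*, *Lmod1*, *Smtn* and *Mylk*. A CArG box without a substitution, searched on both strands, was present in 1.63% of all 32851 promoters of this length, and 9.98% held one with at most 1 substitution. A substitution here is a C or G within the run of A and T. Changes in the flanking pairs of C and G were not searched. Among the 6 matched genes, *Myl9* held a box without a substitution at 161 bases before its start and one with 1 substitution at 99 bases, and *Acta2* held 2 boxes with 1 substitution at 84 and 34 bases. No other matched gene held either form in this window. The sarcomeric actins *Acta1* and *Actc1* and the cytoplasmic *Actg1* each held a box without a substitution. The promoters of *Acta2* (chr19:34255364-34255573, minus strand) and *Myl9* (chr2:156775264-156775473, plus strand) are shown, as the matched members that held either form. The letters run from 200 bases before the start to 10 bases after it, and capitals mark the CArG boxes with at most 1 substitution.
Acta2: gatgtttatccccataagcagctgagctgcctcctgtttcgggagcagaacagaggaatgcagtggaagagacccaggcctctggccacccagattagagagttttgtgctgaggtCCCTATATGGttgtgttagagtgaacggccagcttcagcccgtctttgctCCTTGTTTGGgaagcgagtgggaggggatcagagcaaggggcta
Myl9: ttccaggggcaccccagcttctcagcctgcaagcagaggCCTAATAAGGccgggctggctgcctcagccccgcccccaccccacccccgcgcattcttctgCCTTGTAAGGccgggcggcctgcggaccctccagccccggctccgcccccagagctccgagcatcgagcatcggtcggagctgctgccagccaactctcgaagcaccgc
A match describes the letters of the window and is not evidence of binding.

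The libraries held between 109653824 and 126257094 deposited unique molecular identifiers (UMIs), and 36969 cells passed the limits on genes, UMIs and mitochondrial share. Kept cells numbered between 8177 and 10461 per library, with a median of 9118 to 11427 UMIs, and the WT libraries were deeper per cell. No feature was named *SYISL*, and its host gene *Synpo2* stood at 10.4 and 10.3 CPM (UMIs scaled to 1000000) in WT and at 10.9 and 9.03 in KO over all kept cells, so the knockout could not be read from the files. KO replicate 2 stood apart in sex-linked transcripts, with *Xist* in 98.2% of its cells and in at most 0.0587% of the cells of the other libraries. Pairs of libraries shared between 15 and 27 cell barcodes.

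Cells were clustered and named without the 10 genes. The 1739 mural cells were divided into 675 pericyte-like cells, 530 smooth muscle-like cells and 3 clusters that stayed unnamed. Of 12 smooth muscle markers, 11 were higher in the smooth muscle-like cells, such as *Casq2* at 274 against 93.1 CPM, with CPM taken over the UMIs of each population. *Rgs4* went the other way, at 23.0 against 76.8 CPM. *Kcnj8* and *Abcc9*, which mark pericytes, were at 420 and 1012 CPM in the pericyte-like cells and at 72.2 and 218 CPM in the smooth muscle-like cells. Of 11 pericyte markers, 10 were higher in the pericyte-like cells. *Rgs5* was high in both (2773 CPM in pericyte-like and 2054 CPM in smooth muscle-like cells), and *Ndufa4l2* went the other way, at 1375 against 1739 CPM. Fibro-adipogenic progenitors (FAPs), the resident fibroblasts of muscle, formed 17246 FAP-like cells. Myogenic cells comprised 2862 progenitor-like cells, 903 myoblast-like cells and also 79 myotube-like ones, besides 1821 cycling cells and 1064 cells of an unnamed cluster led by *Slc24a3*, whose leading genes include *Myod1*. Naming left out the members, but clusters are built from expression, so differences in level between populations are descriptions with no test.

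The smooth muscle-like cells held most members at high levels. *Mylk* and *Myh11* varied least between libraries, and *Cnn1* (140 to 220 CPM) and *Smtn* (44.7 to 67.0 CPM) most. *Acta2* stood at 10482 and 9397 CPM in WT replicates 1 and 2 and at 10217 and 11876 CPM in KO replicates 1 and 2, which is 10493 ± 1031 CPM over the libraries (SD, n = 4). *Tagln* averaged 6453 ± 589 CPM, *Myl9* 1871 ± 125 CPM and *Myh11* 1065 ± 45.2 CPM (SD, n = 4). The kit counts 3′ ends, but whether intronic reads were counted is not known, so the order of levels between genes may depend on gene span. *Mylk* averaged 867 ± 28.7 CPM, *Actg2* 455 ± 61.8 CPM and *Lmod1* 251 ± 37.6 CPM (SD, n = 4). *Cnn1* followed at 182 ± 33.3 CPM, *Myocd* at 174 ± 13.4 CPM and *Smtn* at 59.2 ± 10.2 CPM (SD, n = 4). All 10 genes together made up 21870 ± 1805 CPM (SD, n = 4).

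**Figure D1:**
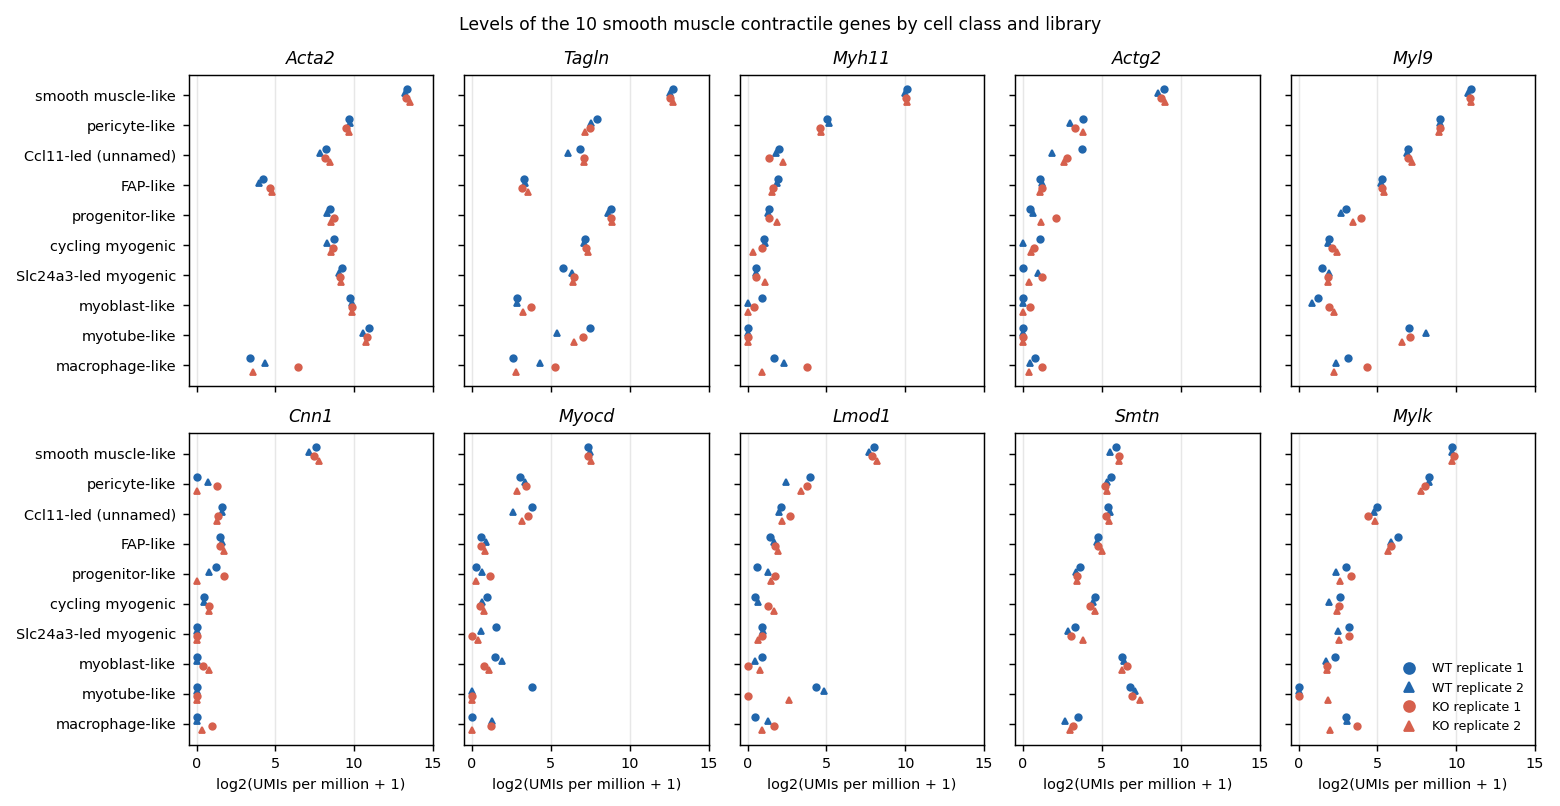
Level of each of the 10 genes, as log2(CPM + 1), in 10 cell populations; each point is 1 library (blue WT, red KO; circles replicate 1, triangles replicate 2). The smooth muscle-like cells lead all panels shown except *Smtn*, which is highest in the myotube-like cells (134 CPM), and *Acta2* and *Tagln* also stand at 362 and 440 CPM in progenitor-like cells.

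Within the smooth muscle-like cells, 172 cells led by *Gja5*, a gap junction gene of arteries, and 358 cells led by *Grp* differed in the amount of every member. Summed over the 10 genes, the *Gja5*-led cells held 43744 and 37750 CPM in the WT libraries and 43999 and 39317 CPM in the KO libraries. The *Grp*-led cells held 13008 and 10128 CPM in WT and 12106 and 12752 CPM in KO, so the sub-clusters did not overlap and the ratio of the means was 3.43. The ratio was far from even across genes. *Cnn1* was 13.4 times higher in the *Gja5*-led cells, at 470 ± 77.8 against 35.0 ± 13.2 CPM, and *Actg2* 10.4 times, at 1135 ± 197 against 110 ± 9.46 CPM (SD, n = 4). *Tagln* was 5.48 times higher (14076 against 2569 CPM) and *Lmod1* 3.90 times (490 against 126 CPM). *Acta2*, *Myh11*, *Smtn* and *Myl9* differed by 2.70 to 2.89 times. *Myocd* and *Mylk*, the coactivator and the kinase, differed least, by 1.96 and 1.70 times. Each of these 10 ratios pointed the same way in 4 of 4 libraries. The sub-clusters were formed once from the cells of all libraries together, so this agreement is a description and not replication. *Myh11* and *Acta2* kept one proportion in both sub-clusters, with 10.2 *Myh11* UMIs per 100 *Acta2* UMIs in each.

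A mural cluster of 119 cells led by *Gstm1* stayed unnamed, with 5 FAP markers beside 4 smooth muscle markers raised in it. It held more *Acta2* (15722 ± 1298 CPM) and more *Actg2* (1288 ± 145 CPM) than the smooth muscle-like cells as a whole, with no overlap between libraries, and *Cnn1* at 351 ± 37.4 CPM (SD, n = 4). *Myh11* ran the other way, at 865 ± 146 CPM, with 1 library inside the range of the smooth muscle-like cells and the others below it. A cycling mural cluster of 296 cells led by *Pimreg* held *Acta2* at 3987 ± 436 CPM and *Myh11* at 253 ± 73.7 CPM (SD, n = 4). A further unnamed cluster of 119 cells led by *Fam155a* was marked as doublets by Scrublet in 53.8% of its cells and was not read further.

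**Figure D2:**
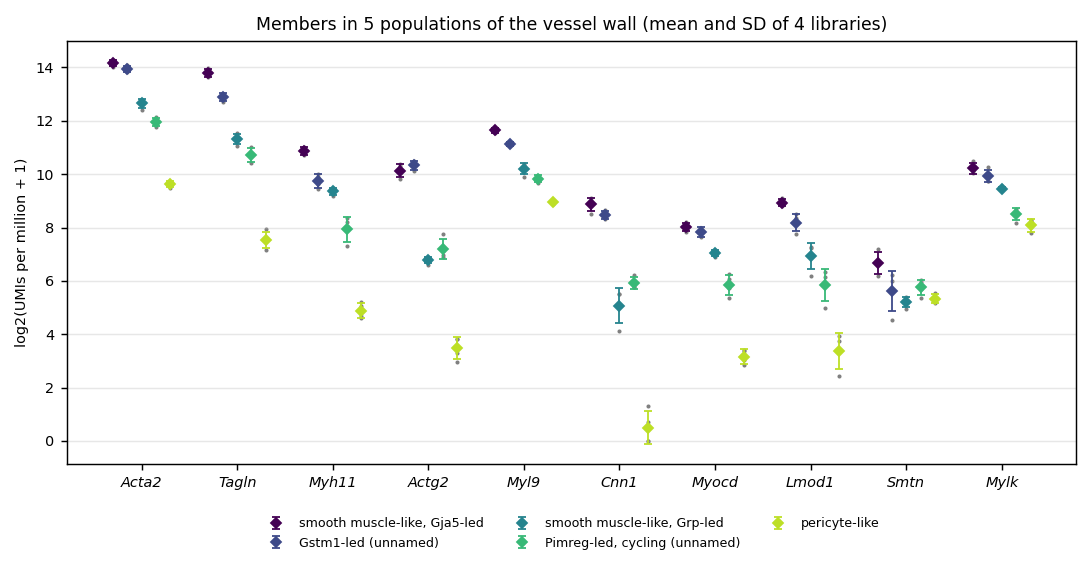
Levels of the 10 genes in 5 populations of the vessel wall, as log2(CPM + 1); diamonds and bars are the mean and SD of 4 libraries, and grey dots are the libraries. *Cnn1* and *Actg2* separate the *Gja5*-led from the *Grp*-led smooth muscle-like cells most widely, by 13.4 and 10.4 times, and *Smtn* differs least between smooth muscle-like and pericyte-like cells.

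Pericyte-like cells held the same genes at lower and uneven levels. *Acta2* stood at 827 and 842 CPM in WT and at 714 and 806 CPM in KO, so the smooth muscle-like mean was 13.2 times higher. *Actg2*, *Myh11* and *Tagln* differed most, being 43.4, 36.7 and 34.3 times higher in the smooth muscle-like cells, followed by *Lmod1* (24.5 times) and *Myocd* (21.6 times). *Myl9* and *Mylk*, the light chain and its kinase, differed by 3.77 and 3.18 times, with pericyte-like means of 496 ± 15.4 and 273 ± 42.6 CPM (SD, n = 4). *Smtn* differed by 1.49 times (59.2 against 39.6 CPM). *Cnn1* had 3 UMIs in all 675 pericyte-like cells, so no ratio is given. The pericyte-like cells therefore kept the light chain and its kinase at levels closer to smooth muscle than the actins, the motor or the coactivator, and they held 3.66 *Myh11* UMIs per 100 *Acta2* UMIs against 10.2 in the smooth muscle-like cells.

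FAP-like cells were low in most members. *Acta2* stood at 17.9 and 14.5 CPM in WT and at 24.7 and 26.7 CPM in KO, *Tagln* averaged 9.16 ± 1.15 CPM, and *Myh11*, *Lmod1*, *Cnn1*, *Actg2* and *Myocd* averaged at most 2.39 CPM. After each cell was thinned to 2000 UMIs, 2.86% of FAP-like cells had an *Acta2* UMI, against 2.98% of macrophage-like cells, a type that should lack the gene. Median depth was 10326 UMIs in FAP-like and 10832 UMIs in macrophage-like cells. Pooled over libraries, the *Acta2* share of FAP-like cells was thus not above that of macrophage-like cells. Scrublet marked 8.05% of macrophage-like and 0.25% of FAP-like cells as doublets. Of 383 *Acta2* UMIs in macrophage-like cells, 263 lay in KO replicate 1, so their share is an uncertain measure of background. The exceptions to the low levels were *Mylk*, *Myl9* and *Smtn*, found in 10.6%, 7.27% and 5.24% of FAP-like cells and in 0.96%, 1.35% and 1.06% of macrophage-like cells. *Mylk* was highest in the FAP-like cluster led by *Dipk1c*, at 86.8 ± 17.4 CPM, against 32.9 ± 4.50 CPM in the cluster led by *Ly6a* (SD, n = 4). The cycling FAP-like cluster led by *Mxd3* held *Acta2* at 35.0 and 29.9 CPM in WT and at 65.7 and 58.3 CPM in KO, in 5.57% of its cells.

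An unnamed cluster of 1419 cells led by *Ccl11*, in which 4 mural and 2 FAP markers were raised, stood above the FAP-like cells in several members. It held *Acta2* at 291 ± 48.4 CPM, *Myl9* at 127 ± 13.0 CPM and *Tagln* at 114 ± 34.0 CPM (SD, n = 4), with an *Acta2* UMI in 23.7% of its thinned cells. *Myh11* averaged 2.69 CPM there, which is 0.93 UMIs per 100 *Acta2* UMIs, far below the 10.2 of smooth muscle. *Myocd* averaged 9.03 ± 3.32 CPM, in the range of the pericyte-like cells (8.08 ± 1.64 CPM, SD, n = 4).

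*Acta2*, *Tagln* and *Smtn* each took their own course through the myogenic populations, and *Myl9* was sizeable in the myotube-like cells. *Acta2* was lowest in the progenitor-like (362 ± 41.0 CPM) and cycling cells (372 ± 46.4 CPM), whose ranges overlapped, and stood at 565 ± 34.1 CPM in the *Slc24a3*-led cells (SD, n = 4). In the myoblast-like cells it stood at 854 and 926 CPM in WT and at 936 and 913 CPM in KO, above the pericyte-like cells in every library, and in the myotube-like cells it averaged 1747 ± 190 CPM. At 2000 UMIs per cell, *Acta2* was found in 42.2% of progenitor-like, 61.5% of *Slc24a3*-led and 72.9% of myoblast-like cells. *Acta2* thus stood higher in each population from the *Slc24a3*-led to the myotube-like cells.

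*Tagln* went the opposite way. It stood at 442 and 402 CPM in WT and at 453 and 465 CPM in KO progenitor-like cells, more than in the pericyte-like cells (188 ± 41.3 CPM). It averaged 147 ± 10.9 CPM in cycling cells, 76.2 ± 15.1 CPM in the *Slc24a3*-led cells and 8.29 ± 2.98 CPM in the myoblast-like cells (SD, n = 4). The myotube-like cells averaged 108 ± 57.0 CPM, spread from 40.9 to 174 CPM over libraries of 11 to 30 cells. *Tagln* was found in 46.5% of thinned progenitor-like cells and in 1.89% of myoblast-like cells, which is close to the 1.54% of macrophage-like cells. *Tagln* is among the 10 leading genes of the progenitor-like sub-cluster, although it was left out of the clustering.

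*Smtn* was the only member whose highest mean lay outside the vessel wall. It averaged 10.1 ± 0.76 CPM in progenitor-like cells, 82.3 ± 8.89 CPM in myoblast-like cells and 134 ± 27.6 CPM in myotube-like cells (SD, n = 4), and the myoblast-like mean was 8.18 times the progenitor-like one. Glial-like cells (75.4 ± 17.8 CPM) overlapped both the myoblast-like and the smooth muscle-like cells (59.2 ± 10.2 CPM) in range, whereas these last did not overlap each other. *Myl9* was near 0 through the lineage, at 9.20 CPM in progenitor-like and 2.13 CPM in myoblast-like cells, but averaged 156 ± 79.4 CPM in myotube-like cells.

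The smooth muscle motor did not accompany *Acta2* into the skeletal lineage. *Myh11* had 44 UMIs in 2862 progenitor-like cells, 3 UMIs in 903 myoblast-like cells and 0 in 79 myotube-like cells, beside 8858, 9559 and 1351 *Acta2* UMIs. *Actg2* had 34, 1 and 0 UMIs in the same cells. Over these stages the sarcomeric actin *Actc1* averaged 74.4, 4733 and 10203 CPM and the adult skeletal actin *Acta1* 83.4, 497 and 26952 CPM.

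**Figure D3:**
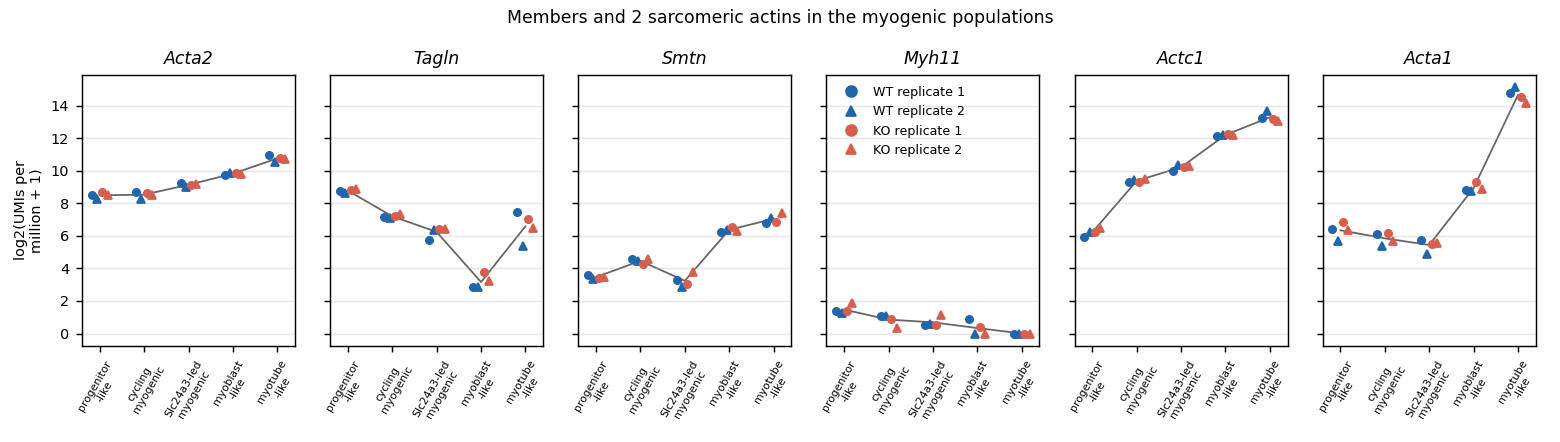
Levels of 4 members and of the sarcomeric actins *Actc1* and *Acta1*, as log2(CPM + 1), in the myogenic populations; points are libraries and the line joins means of the log2 values. *Acta2* stands higher from progenitor-like (362 CPM) to myotube-like cells (1747 CPM), *Tagln* lower from progenitor-like (440 CPM) to myoblast-like cells (8.29 CPM), and *Myh11* stays at or below 2.64 CPM in every library.

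Counted over all kept cells, the 10 genes differed in how far they belonged to smooth muscle. Of 9306 *Myh11* UMIs, 59.9% lay in the smooth muscle-like cells, which are 1.43% of all cells. The share was 45.5% for *Lmod1*, 43.9% for *Tagln* and *Myocd*, 42.8% for *Actg2*, 39.8% for *Cnn1*, 36.7% for *Acta2* and 29.5% for *Myl9*. Only 18.0% of *Mylk* and 2.48% of *Smtn* UMIs lay there. FAP-like cells, which are 46.6% of all cells, held 44.9% of the *Mylk* and 40.9% of the *Smtn* UMIs. Progenitor-like cells held 13.9% of all *Tagln* UMIs. Of the panel, *Mylk* and *Smtn* were therefore the least restricted to the vessel wall.

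Single cells that carried several members at once lay mostly in the vessel wall. At 2000 UMIs per cell, smooth muscle-like cells held a median of 6 of the 10 genes, and 65.4% of them held at least 5. The *Gja5*-led cells held a median of 7 and the *Grp*-led cells of 4. Pericyte-like cells held a median of 1, with at least 5 in 1.93% of cells. In progenitor-like and FAP-like cells, at least 5 were found in 0.0701% and 0.0116% of cells. Myoblast-like cells held a median of 1 member, and none of 901 reached 5.

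As a description, the summed level of the members was compared with each of 13077 genes over 80 profiles (20 populations in 4 libraries, which share libraries and cell types). Outside the members and the lists of related genes, *Map3k7cl*, which also served as a smooth muscle marker, was most like it (Pearson's r of log2(CPM + 1) 0.949), followed by *Jph2* (0.855), *Pakap* (0.851), *Mprip* (0.848), *Itga7* (0.843), *Bcam* (0.843), *Ift43* (0.835) and *Kcnk3* (0.829). *Map3k7cl* averaged 305 CPM in smooth muscle-like, 28.2 CPM in pericyte-like and 1.35 CPM in FAP-like cells.

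Whether the loss of *SYISL* changed these genes was asked in each class with the library as the replicate, by edgeR's quasi-likelihood test on UMIs summed per library, and p-values were adjusted by Benjamini-Hochberg across every gene tested. Each genotype has 2 libraries, and p-values measure the spread between these libraries alone. No member passed an adjusted p of 0.05 in any class. Since the KO group has 1 library of each *Xist* state, KO levels below are given by library. A log2 fold change given alone joins both KO libraries and does not show them apart.

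In smooth muscle-like cells all 10 members were tested and 0 passed, beside 1 of 9592 genes (0.0104%). No member had an unadjusted p under 0.05 (425 genes did, 4.43%), and DESeq2 called no member and 2 genes (0.0109%). Log2 fold changes of KO over WT ran from -0.01 for *Tagln* (SE 0.10) to 0.33 for *Smtn* (SE 0.19), with a median of 0.10 against 0.00 over all genes. For *Acta2* it was 0.16 (SE 0.09, edgeR adjusted p = 0.999). Without WT replicate 1, which left 1 WT library, it was 0.27, the only setting run in which a member passed in these cells. *Smtn*, at 59.3 and 44.7 CPM in WT and 67.0 and 65.7 CPM in KO, was the only member with both KO libraries above both WT libraries, an order that 15.5% of all genes tested also had. The other 9 overlapped, so no member had the opposite order, found in 17.7% of genes. Of the mural cells, 35.0% and 26.1% were smooth muscle-like in WT, and 33.5% and 25.9% in KO (exact two-sided permutation p = 0.667, the smallest possible being 0.333), a difference of -0.883 percentage points that became 3.56 without WT replicate 1 and 2.88 without KO replicate 2.

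In pericyte-like cells 9 members were tested and 0 passed (edgeR adjusted), and of all genes tested 0 of 9706 passed (0%), with 468 genes (4.82%) at an unadjusted p under 0.05 and 1 gene (0.00535%), no member, called by DESeq2. *Mylk* and *Tagln* were the members at an unadjusted p under 0.05. *Mylk* stood at 303 and 311 CPM in WT and at 256 and 220 CPM in KO, so that KO over WT was -0.34 on the log2 scale (SE 0.11; adjusted p = 0.888 by edgeR). *Tagln* stood at 242 and 188 CPM in WT and at 179 and 142 CPM in KO, so that KO over WT was -0.39 on the log2 scale (SE 0.14; adjusted p = 0.975 by edgeR). With *Acta2* and *Myh11*, these were the 4 members with both KO libraries below both WT libraries, an order that 20% of all genes had, and none had the opposite order (13.6%). For *Acta2* this order was not kept without its highest cells, 5 and 5 of WT and 3 and 3 of KO. *Acta2* then stood at 574 and 599 CPM in WT and at 580 and 670 CPM in KO, and the genotypes overlapped. This cut was made at a fixed level of *Acta2* itself and took more cells from WT, the higher genotype. It therefore narrows the gap by construction. The direction of *Tagln* turned when the members were kept in the clustering (0.04), and the 12 smooth muscle markers summed to 421 and 370 CPM in WT and 431 and 336 CPM in KO pericyte-like cells. The part of cells at the border with smooth muscle in these values was not tested.

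**Figure D4:**
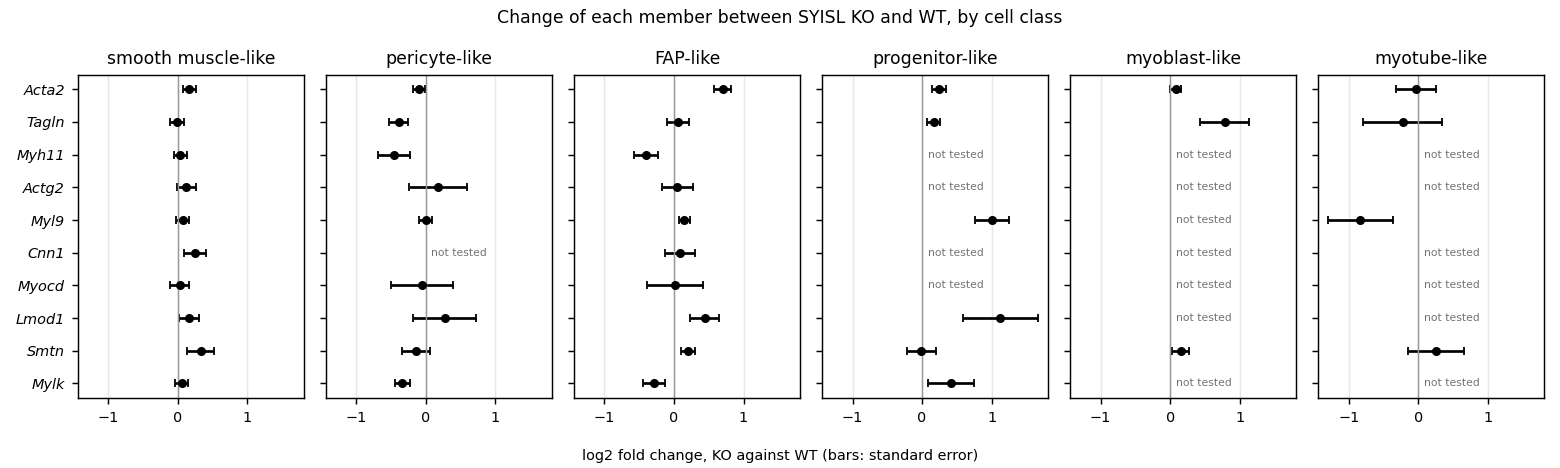
Log2 fold change of KO against WT for each member in 6 cell classes; bars are standard errors from the edgeR fit on 2 libraries per genotype, and members below the count filter are marked as not tested. The points of smooth muscle-like cells run from -0.01 (*Tagln*) to 0.33 (*Smtn*), and no point in any panel passed an adjusted p of 0.05.

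Whether the KO effect differed between both mural classes was tested directly as an interaction, each library forming a block. No member passed, beside 3 of 10568 genes (0.0284%), 459 genes (4.34%) were at an unadjusted p under 0.05, and DESeq2 called 0. The term was 0.28 for *Acta2* (SE 0.07, edgeR adjusted p = 0.332), 0.39 for *Tagln*, 0.40 for *Mylk* and 0.51 for *Myh11* (adjusted p of 1.00 each), all with the KO higher relative to WT in smooth muscle-like than in pericyte-like cells. These 4 were at an unadjusted p under 0.05. The direction depended on how mural cells were divided: with a looser cell filter the term was -0.16 for *Acta2*, -0.02 for *Tagln* and -0.08 for *Myh11*. Without KO replicate 1 the *Tagln* term was 0.67, and without WT replicate 1 that of *Acta2* was 0.37. Each of these fits had 1 library left in a genotype. For the *Tagln* term this was KO replicate 2, with *Xist* in 98.2% of its cells, so genotype and *Xist* state cannot be told apart there.

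In FAP-like cells 10 members were tested and 0 passed (edgeR adjusted), and of all genes tested 0 of 18157 passed (0%), with 457 genes (2.52%) at an unadjusted p under 0.05, *Acta2* alone among the members. *Acta2*, with the per-library levels given above, had both KO libraries above both WT libraries, with KO over WT at 0.70 on the log2 scale (SE 0.12; adjusted p = 1.00 by edgeR). DESeq2 called 8 genes (0.048%), *Acta2* among them (adjusted p = 0.0148). Thinned cells with an *Acta2* UMI made up 3.10% and 1.96% in WT, and 3.12% in both KO libraries, around the pooled share of the macrophage-like cells. The *Acta2* cut used in pericyte-like cells took 1 cell here, of KO replicate 2. That library then stood at 24.8 CPM, so the order stayed. The 10 mural markers summed to 880 and 775 CPM in WT and to 794 and 742 CPM in KO FAP-like cells. The 10 myogenic markers summed to 84.0 and 60.1 CPM in WT and to 83.9 and 98.6 CPM in KO, with 6 of them higher in both KO libraries and 0 lower. The part of RNA from other cells in the *Acta2* values was not tested. In macrophage-like cells *Acta2* stood at 9.67 and 19.6 CPM in WT and at 84.1 and 11.1 CPM in KO. Both KO libraries were above both WT libraries for 4 members, an order found in 8.99% of genes, and below for *Myh11* (20.9% of genes).

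In progenitor-like cells 6 members were tested and 0 passed (edgeR adjusted), and of all genes tested 0 of 12359 passed (0%), with 503 genes (4.07%) at an unadjusted p under 0.05 and 1 gene (0.00475%), no member, called by DESeq2. *Myl9* and *Acta2* were the members at an unadjusted p under 0.05. *Myl9* stood at 6.96 and 5.57 CPM in WT and at 14.2 and 10.1 CPM in KO, so that KO over WT was 1.00 on the log2 scale (SE 0.24; adjusted p = 0.963 by edgeR). These values rest on 40 and 31 UMIs in WT and on 98 and 61 UMIs in KO, in 1.51% of thinned progenitor-like cells against 1.35% of macrophage-like cells. *Acta2* stood at 361 and 312 CPM in WT and at 413 and 363 CPM in KO, so that KO over WT was 0.25 on the log2 scale (SE 0.10; adjusted p = 0.963 by edgeR). *Tagln*, *Acta2*, *Myl9* and *Lmod1* had both KO libraries above both WT libraries, as did 11.3% of all genes. No member tested had the opposite order, found in 22.9% of genes. *Lmod1* rests on 3 and 8 UMIs in WT and on 16 and 11 UMIs in KO. For *Acta2* the order was not kept without its highest cells, 2 of KO replicate 1 and 1 of KO replicate 2. KO then stood at 372 and 349 CPM beside 361 and 312 CPM in WT, and the genotypes overlapped. This cut, at the same level of *Acta2* as in pericyte-like cells, took cells from KO only and so narrows the gap by construction. The 10 mural markers summed to 389 and 374 CPM in WT and 361 and 365 CPM in KO progenitor-like cells, whereas the 11 myotube markers summed to 381 and 287 CPM in WT and 466 and 413 CPM in KO, with 4 of them higher in both KO libraries. The part of either list in these values was not tested.

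In myoblast-like cells 3 members were tested and 0 passed (edgeR adjusted), and of all genes tested 0 of 9929 passed (0%), with 526 genes (5.3%) at an unadjusted p under 0.05, *Tagln* alone among the members, and 1 gene (0.00539%), no member, called by DESeq2. *Acta2* had a log2 fold change of 0.08 (SE 0.08) and *Smtn* of 0.15 (SE 0.13). *Tagln*, at 6.18 and 6.13 CPM in WT and 12.5 and 8.36 CPM in KO, had one of 0.78 (SE 0.36, edgeR adjusted p = 0.915) and was the only member of the 3 without overlap, an order shared by 13.9% of genes, while none of the 3 had the opposite one (19.8%). Its values rest on 14 and 16 UMIs in WT and on 36 and 23 UMIs in KO. As given above, its share of thinned myoblast-like cells was close to that of macrophage-like cells. In myotube-like cells 4 members were tested and 0 passed (edgeR adjusted), and of all genes tested 0 of 2279 passed (0%), with 189 genes (8.29%) at an unadjusted p under 0.05 and none called by DESeq2. All 4 overlapped between genotypes, while 23.1% of genes had both KO libraries above and 16.1% below, and these cells numbered 25 and 11 in WT and 13 and 30 in KO. Their median depth was 3985 and 4767 UMIs in WT and 11479 and 10090 UMIs in KO, so these fits are the least precise.

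Partners and regulators of the members were read from lists of 40 and 25 genes. The partners cover tropomyosins, caldesmon, myosin phosphatase and filament linkers, and the regulators cover SRF and its cofactors, Krüppel-like factors and Notch and TGF-beta genes. Of the partners 30 to 39 and of the regulators 4 to 23 were tested per class, and none passed an adjusted p of 0.05 (edgeR) in any class or in the interaction. Counts at an unadjusted p under 0.05 follow, with the share of all genes in brackets. In smooth muscle-like cells they were 0 of 38 partners and 0 of 19 regulators (4.43%). Pericyte-like cells had 1 of 37 and 1 of 20 (4.82%), and FAP-like cells 3 of 39 and 3 of 23 (2.52%). Progenitor-like cells had 4 of 39 and 2 of 19 (4.07%). Myoblast-like cells had 4 of 38 and 1 of 14 (5.3%), and myotube-like cells 4 of 30 and 0 of 4 (8.29%). The partners *Tpm1* and *Tpm2*, the tropomyosins, averaged 2237 and 2150 CPM in smooth muscle-like and 525 and 565 CPM in pericyte-like cells, without a test.

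Named by a rule on size and order, *Srf* stood at 21.6 and 12.6 CPM in WT and 24.1 CPM in both KO libraries of smooth muscle-like cells (log2 fold change 0.43, SE 0.30). In pericyte-like cells *Srf* had a log2 fold change of -0.40 (SE 0.32). *Tead3* (0.38) and *Pdlim3* (0.37) were the other genes named in smooth muscle-like cells, *Tgfb1* (-0.37) and *Prrx1* (-0.29) in pericyte-like cells, and *Filip1l* (0.22), *Smtnl2* (0.21) and *Klf4* (0.20) in FAP-like cells. In progenitor-like cells these were the transcription factor *Klf5* (0.59), the Notch target *Hes1* (0.31) and the myosin phosphatase subunit *Ppp1r12b* (-0.25). In myoblast-like cells *Prkg1* (-0.38), *Pdlim5* (-0.36) and *Vcl* (-0.34) and in myotube-like cells *Cald1* (2.00) and *Fhl1* (-1.18) were named. *Cald1* was at 70.9 and 0 CPM in WT, the latter from 11 cells, and at 176 and 197 CPM in KO. The 12 FAP markers summed to 1121 and 286 CPM in WT and 2818 and 1651 CPM in KO myotube-like cells, with 8 of them higher in both KO libraries, and their part in *Cald1* was not tested. None of these differences passed the adjusted test.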

How the data were processed

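Leg muscle cells of 2 WT and 2 KO libraries were captured with a droplet-based 3′ kit, and the authors aligned the reads to mm10 (GRCm38) with Cell Ranger 7.2.0 and deposited filtered matrices of raw UMI counts per gene and cell. Whether intronic reads were counted is not given in the sources used here. From the deposited counts, cells were kept by the study's limits, which are 1000 to 6000 genes, a UMI total of 1000 to 25000 and a mitochondrial share under 8%. Doublets were scored by Scrublet and kept, with their removal as an alternative. Cells were clustered with scanpy 1.11.5 (Leiden, igraph 0.11.9, resolution 0.3, 3000 variable genes, 30 components, 20 neighbours, no batch integration) without the 10 members. Since no annotation was used, names were rebuilt: a cluster needed at least 3 markers, and a class was tested with at least 10 cells in every library. The rule for names was set after the data were seen, and the members and lists were chosen with earlier results of these data known.

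Within each class, the UMIs of a library's cells were added up and compared by edgeR 4.0.16 (TMM scaling, filterByExpr, quasi-likelihood, R 4.3.3), with DESeq2 1.42.0 as an alternative and Benjamini-Hochberg adjustment over all genes tested at 0.05. Only the libraries of the class entered each fit, without covariates. CPM (counts scaled to 1000000) is relative to all UMIs of the class in a library. Shares of cells with a UMI were taken after thinning each cell to 2000 UMIs, which left out shallower cells, and were recomputed at 1000 UMIs and without thinning. Depth was 109653824 to 126257094 UMIs per library, and counts carry sampling error that is largest in the small classes. All members were named. Of the lists, up to 3 genes per class were named, those with the largest change among genes of at least 10 CPM without overlap between genotypes, and 1 gene so chosen is not reported here. The scripts were tested on simulated data. Other alternatives were the scaling, the filters on genes and cells, the clustering genes and resolution, centring within libraries, a block on replicate number and the omission of 1 library at a time.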

Additional observations from a re-analysis of the deposited data

Results flagged for a closer look

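The KO libraries lay on opposite sides of the WT libraries in different classes for *Acta2* and *Tagln*. Of all genes tested, 8.99% in FAP-like, 11.3% in progenitor-like and 13.9% in myoblast-like cells had both KO libraries above both WT libraries. In pericyte-like cells 20% had both below. How many of all genes had opposite orders in different classes was not counted. For *Acta2*, both KO libraries were above both WT libraries in FAP-like cells (log2 fold change 0.70) and in progenitor-like cells (0.25), and both were below in pericyte-like cells (-0.10). For *Tagln*, both KO libraries were above in progenitor-like (0.17) and myoblast-like cells (0.78) and below in pericyte-like cells (-0.39). The myoblast-like value rests on 14 and 16 *Tagln* UMIs in WT and on 36 and 23 in KO. Without the few cells that held the most *Acta2*, the genotypes overlapped for it in pericyte-like cells (574 and 599 CPM in WT, 580 and 670 CPM in KO) and in progenitor-like cells (361 and 312 CPM in WT, 372 and 349 CPM in KO). That cut, made on *Acta2* itself, narrows those gaps by construction. In FAP-like cells the order stayed after it (17.9 and 14.5 CPM in WT, 24.7 and 24.8 CPM in KO). None of these changes of *Acta2* and *Tagln* passed the adjusted test within its class, and the difference between the classes was not tested.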

How the results depend on the processing

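No member passed in any class under most alternatives. The exceptions, each with 1 member called, were DESeq2 in FAP-like cells (*Acta2*), the replicate block in progenitor-like cells (*Myl9*, log2 fold change 0.99, edgeR adjusted p = 0.0344), and leaving out a library, which gave 0 to 1 members in smooth muscle-like cells and 0 to 1 in the interaction. The cause was not tested. The count of genes called of all tested moved more. With DESeq2 it was 2 in smooth muscle-like, 1 in pericyte-like, 8 in FAP-like, 1 in progenitor-like and 1 in myoblast-like cells and 0 in the interaction. Without a filter on low counts, with more genes tested, it was 16 in smooth muscle-like, 21 in pericyte-like, 25 in myoblast-like and 38 in myotube-like cells, and with at least 10 CPM it was 0 in smooth muscle-like cells. With the looser cell filter it was 1 in myotube-like cells and 0 in the interaction, and with centring 1 in the interaction. Leaving out 1 library gave 1 to 28 in smooth muscle-like, 3 to 23 in pericyte-like, 0 to 8 in FAP-like, 0 to 31 in progenitor-like, 11 to 32 in myoblast-like and 20 to 85 in myotube-like cells and 2 to 13 in the interaction, the remaining library of a genotype being assumed to vary like the others.

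Among changes at an unadjusted p under 0.05 or called in any setting, directions that turned were those of *Tagln* in pericyte-like cells (0.0436 with the members kept in the clustering) and of the interaction. There *Acta2* was -0.16 with the looser filter, -0.0012 with members and lists left out of the clustering and -0.0648 with centring, and *Tagln* was -0.0209 with the looser filter and -0.0722 with the members kept. *Myh11* was -0.0839, -0.0121, -0.90 and -0.29 with the looser filter, members kept, lists left out and centring, and -0.0071 at resolution 0.6. The smooth muscle-like share of mural cells differed by 0.242 points with lists left out and 0.311 points with Scrublet doublets removed, and by -5.33 to 3.56 points without 1 library. Of 778 refitted member changes, 670 kept their direction and side of the threshold, 103 turned and 5 passed it, and 92 of those that turned were among changes without a call or an unadjusted p under 0.05. Adding the *Gstm1*-led cells to the smooth muscle-like cells, chosen after seeing the data, changed no call.

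The replicate numbers share no stated litter or batch, and same-numbered libraries deviated together with r of -0.03 to 0.32, so they were not read as pairs. The replicate block gave 6 genes in pericyte-like and 36 in progenitor-like cells. The interaction has the library as its block, and the myotube-like fit with lists left out of the clustering was not run, having too few cells. With 2 libraries per genotype, low counts and the few myotube-like cells limit what could be detected.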
